A study of Mus musculus with 115 samples.

Results

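Liver transcripts of the urea cycle and of neighbouring steps of amino acid breakdown were followed through 10 genes, Cps1, Ass1, Asl, Arg1, Nags, Gls2, Glul, Oat, Tat and Hal, taken by symbol from the 18120 symbols of the liver array table. All 10 were present, on 14 of its 25697 probes. Asl and Gls2 had 2 probes each, Nags had 3 and the others had 1. Every one of the 14 probes was detected above background (detection p under 0.01) in 60 of 60 liver arrays, so none was lost to the filter on dim probes, which kept 11317 probes for testing. Where a gene had several probes, the one with the highest mean signal stands for the gene and the others are given beside it.

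The mice were FCG (core genotypes) mice of the C57BL/6J strain. Their Y chromosome has lost Sry, the gene that directs the gonad to become a testis, and a transgene outside the sex chromosomes can supply it, which uncouples gonad type from XX or XY status. XX and XY- mice lack the transgene and form ovaries (the ovary line), whereas XXSry and XY-Sry mice carry it and form testes (the testis line). All mice were gonadectomised at 75 days of age, so every group, controls included, lacked its own gonads. A capsule implanted at once held adhesive only (blank, B), 5 mM testosterone (T) or 50 µg 17beta-estradiol (E), and liver was taken 3 weeks later. The testis line had therefore been exposed to its testes, and the ovary line to its ovaries, until surgery. The 4 genotypes and 3 capsules gave 12 groups of 5 arrays, or 20 arrays per capsule and 30 per gonad type. The labels give no animal number for an array, and p-values measure the spread between these arrays. The replicate numbers used here only name an array.

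The urea cycle turns ammonia released from amino acids into urea, chiefly in the hepatocytes that lie around the portal vein. Nags makes N-acetylglutamate, the activator that Cps1 needs, Cps1 joins ammonia and bicarbonate into carbamoyl phosphate in the mitochondrion, Ass1 and Asl form and split argininosuccinate, and Arg1 cleaves arginine into urea and ornithine. Gls2, the liver-type glutaminase, releases ammonia from glutamine beside Cps1. Ammonia that escapes is caught by Glul, glutamine synthetase, in the hepatocytes next to the central vein, where Oat, ornithine aminotransferase, is also enriched. Tat starts the breakdown of tyrosine and Hal that of histidine. Glul and Oat are called perivenous here and the other 8 genes periportal, after this known placement and not from these arrays, which read whole liver.

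Normalised values are on a log2 scale, so a difference of 1 is a doubling. Arrays had median raw intensities between 124 and 159, and all 6 hepatocyte markers (Alb, Apoa1, Ttr, Serpina1c, Tf, Fgb) were tested. In the testosterone and in the estradiol contrast 0 of 6 were called, against 19.1% and 6.82% of all tested probes. The array labelled XY-Sry T replicate 5 read Xist at 6.63 and the Y-linked Eif2s3y at 4.53, inside the ranges of the XX arrays, while its Ddx3y, at 7.50, lay just above the XX range (5.69 to 7.43) and below the XY range (9.09 to 10.39). The array labelled XY- E replicate 5 read the testosterone-dependent Hsd3b5 at 12.26 and the female-typical Cyp2b13 at 4.99, inside the ranges of the testosterone arrays. Those ranges, from 11.15 for Hsd3b5 and up to 8.82 for Cyp2b13, also took in the most extreme other estradiol values, 11.19 and 6.93. Cyp4a12a (listed as Cyp4a12) set the array apart, at 11.19. Other estradiol arrays read it at 7.69 or less, and testosterone arrays at 10.78 or more. XY-Sry T replicate 5 and XY- E replicate 5 were kept under their labels, and each called hormone difference over all genotypes is also given without them. XX E replicate 1 stood apart in another way, with the lowest Alb (10.23), Ttr (13.63), Cps1, Ass1 and Gls2 and the highest S100a8 (13.15) of the 60 arrays. Each of the 8 slides held arrays of at most 2 of the 3 capsules, so hormone contrasts are partly tied to slide, and values within a slide are given beside the results.

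Most of the 10 genes were not called for either hormone, and the calls fell on single members. Under testosterone Gls2 and Hal fell by 0.37 and by 0.43 on the log2 scale, 2 of 10 members called lower and 0 higher, against 10.9% of all tested probes called lower and 8.17% higher (19.1% in either direction). Under estradiol Gls2 alone was called, 1 of 10 lower and 0 higher, against 3.27% of probes lower and 3.55% higher (6.82% in either direction). Testosterone livers set directly against estradiol livers had higher Cps1 and lower Glul, 1 of 10 in each direction against 7.78% of probes higher and 10.6% lower (18.4% in either direction). No member was called between the gonad types, where 3.4% of probes were, nor between the sex chromosome complements, where 0.186% were. A call means a limma adjusted p (Benjamini-Hochberg over the 11317 probes of the contrast) under 0.05. The median member differed by -0.04 under testosterone and by -0.08 under estradiol, and the median of all tested probes by 0.00 and -0.02.

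**Figure D1:**
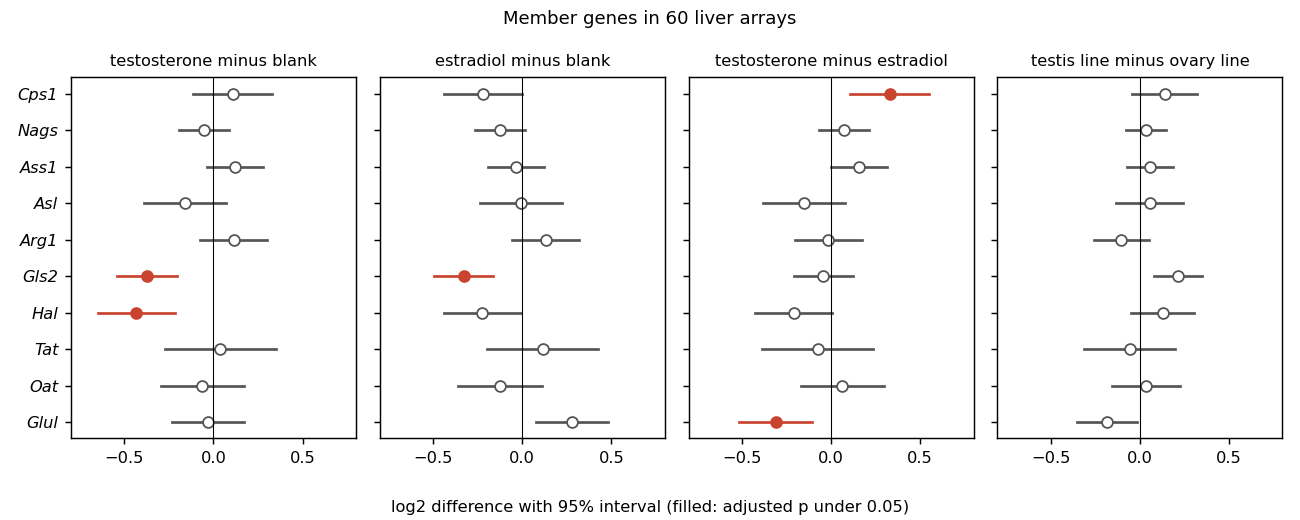
Log2 differences of the 10 genes (points) with 95% confidence intervals (lines) in 4 contrasts over 60 liver arrays; filled red points have a limma adjusted p under 0.05. Hal and Gls2 lie left of 0 for testosterone, Gls2 for estradiol, Cps1 right and Glul left of 0 for testosterone minus estradiol, and no gene is filled for testis line minus ovary line.

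At the cycle's entry Cps1 was higher with testosterone than with estradiol, and Nags was not called. With testosterone, Cps1 read 13.32, 13.67, 13.55, 13.68 and 13.29 in XX livers, 13.39, 13.42, 13.57, 13.61 and 13.46 in XY- livers, 13.01, 13.56, 13.71, 13.53 and 13.76 in XXSry livers and 13.16, 13.59, 13.58, 13.36 and 13.78 in XY-Sry livers. With estradiol it read 11.24, 13.24, 13.36, 13.31 and 13.39 in XX, 13.00, 12.61, 13.49, 13.44 and 13.61 in XY-, 13.12, 13.51, 13.34, 12.83 and 13.62 in XXSry and 13.36, 13.26, 13.44, 12.96 and 13.31 in XY-Sry livers. The ranges overlapped, yet 16 of 20 testosterone arrays lay above the estradiol median of 13.33 and 5 lay above the highest estradiol array. The mean was 13.50 ± 0.20 (SD, n = 20) with testosterone and 13.17 ± 0.52 with estradiol, a difference of 0.33 or 1.26-fold (95% interval 0.11 to 0.55; limma adjusted p = 0.0288). The testosterone mean was above the estradiol mean in 4 of 4 genotypes, by 0.23 to 0.59.

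Against the blank capsule neither arm of Cps1 was called. Blank livers averaged 13.39 ± 0.22 (n = 20), and Cps1 differed by 0.11 with testosterone (limma adjusted p = 0.555) and by -0.22 with estradiol (limma adjusted p = 0.247, lower in 4 of 4 genotypes), the latter -0.12 without XX E replicate 1. The lowest array was XX E replicate 1 at 11.24, where the other 4 arrays of its group lay between 13.24 and 13.39. Without that array the testosterone minus estradiol difference was 0.22 and was still called (limma adjusted p = 0.0365). It was not called without XXSry E replicate 4 (0.30, limma adjusted p = 0.0523) or without XY- E replicate 2 (0.29, limma adjusted p = 0.0561), was 0.33 without the pair of arrays that go against their labels, and was 0.40 and 0.45 within the pair of slides that held both hormones. XXSry B gave the highest group mean of Cps1 (13.65) and XX E the lowest (12.91), and only 1 gap between neighbouring group means in the order of the 12 exceeded the larger SD of the neighbours.

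Nags was among the least variable of the genes. Its 12 group means spanned 9.74 (XX E) to 9.96 (XXSry B), and no neighbouring means in that order were further apart than their SD. It differed by -0.05 with testosterone (95% interval -0.19 to 0.09) and by -0.12 with estradiol (-0.26 to 0.01; limma adjusted p = 0.312). The other Nags probes gave 0.05 and 0.00 for testosterone and -0.07 and -0.01 for estradiol, and were not called.

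The middle and end of the cycle, Ass1, Asl and Arg1, gave no call in any of the 14 contrasts. Ass1 averaged 13.81 ± 0.18 with blank, 13.93 ± 0.19 with testosterone and 13.78 ± 0.29 with estradiol capsules (n = 20 each). Its arrays ran from 13.29 to 14.02 with blank and from 13.62 to 14.30 with testosterone, so the arms overlapped widely. Testosterone livers had the higher mean in 4 of 4 genotypes against blank, a difference of 0.12 whose interval reached from -0.04 to 0.28 (limma adjusted p = 0.304), and in 4 of 4 against estradiol, by 0.16 (-0.00 to 0.31; limma adjusted p = 0.179). The direction of the estradiol difference against blank, -0.03, turned to 0.02 without XX E replicate 1.

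Asl ran the other way from Ass1, without a call. It ranged from 10.88 to 12.25 with blank, from 10.68 to 11.85 with testosterone and from 10.52 to 12.11 with estradiol capsules. The testosterone mean was below blank in 4 of 4 genotypes, a difference of -0.16 (95% interval -0.39 to 0.07; limma adjusted p = 0.366), and the estradiol difference was -0.01 (-0.24 to 0.22). The second Asl probe gave -0.19 and -0.03. Its estradiol effect was lower in the testis line than in the ovary line (difference -0.58, SE 0.24), the largest interaction among the 14 probes, with a limma adjusted p of 0.739. The main Asl probe gave -0.28 for the same interaction.

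Arg1 differed by 0.11 with testosterone (95% interval -0.07 to 0.30) and by 0.13 with estradiol (-0.06 to 0.32; limma adjusted p = 0.468), the latter positive in 4 of 4 genotypes but -0.05 when arrays were median-centred in place of quantile normalised. Its lowest group was XY-Sry B, at 12.74 ± 0.43 (n = 5), and its highest XY- E, at 13.23 ± 0.21. No neighbouring groups of Ass1, Asl or Arg1 were apart by more than the larger of their SDs. Among the main probes of these 3 genes, over all genotypes, the hormone interval of Asl under testosterone reached farthest from 0, to -0.39. That of the second Asl probe reached to -0.43.

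Glutamine is handled at both ends of the lobule, by Gls2 at the portal and Glul at the central end. Gls2 was lower with either hormone than with the blank capsule. XX livers read 12.94, 12.87, 12.80, 13.01 and 12.61 with blank, 12.43, 12.21, 12.38, 12.42 and 12.39 with testosterone and 11.96, 12.07, 12.58, 12.92 and 12.26 with estradiol. XY- livers read 12.62, 12.38, 12.86, 13.01 and 12.51, then 12.60, 12.23, 12.33, 12.22 and 12.31, then 12.45, 12.64, 12.71, 12.32 and 12.40. All 5 XX arrays with testosterone lay below all 5 with blank, while in XY- livers the arms overlapped.

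In the testis line the testosterone arrays of Gls2 were more scattered, with an SD of 0.39 (XXSry) or 0.38 (XY-Sry) where the ovary line had 0.09 (XX) or 0.15 (XY-). XXSry livers read 13.19, 13.26, 13.05, 13.06 and 12.78 with blank, 13.01, 12.36, 12.54, 12.24 and 13.11 with testosterone and 12.84, 12.67, 12.93, 12.58 and 12.41 with estradiol. XY-Sry livers read 12.86, 12.86, 12.87, 12.86 and 12.72, then 12.89, 12.34, 12.14, 12.45 and 13.05, then 12.14, 12.80, 12.80, 12.66 and 12.39. With testosterone 2 XXSry arrays lay within the blank range of their genotype and 2 XY-Sry arrays lay above it, XY-Sry T replicate 5 among them at 13.05. Over all genotypes 16 of 20 testosterone arrays lay below the blank median of 12.86 and 9 below the lowest blank array, and for estradiol these counts were 18 and 5.

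The mean of Gls2 was 12.86 ± 0.22 with blank, 12.48 ± 0.30 with testosterone and 12.53 ± 0.28 with estradiol capsules (SD, n = 20 each). Testosterone gave a fall of 1.30-fold (difference -0.37, 95% interval -0.54 to -0.21; limma adjusted p = 0.000690) and estradiol one of 1.26-fold (-0.33, -0.50 to -0.16; limma adjusted p = 0.00783), each with the lower mean in 4 of 4 genotypes. These comparisons share the blank arrays. The hormones did not differ from each other beyond their error (-0.04, 95% interval -0.21 to 0.12). The testosterone call was kept when any single array was left out, without the pair of arrays against their labels (-0.40) and with slide as a block (-0.35), and the difference was -0.27, -0.40 and -0.20 within the slides that held both capsules. The estradiol call was lost with slide as a fixed block (-0.21, limma adjusted p = 0.152), and the difference was -0.36 and -0.23 within the slides that held both. It was kept without the pair of arrays against their labels (-0.32, limma adjusted p = 0.00808).

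The second probe of Gls2 disagreed in size. It gave -0.11 for testosterone (95% interval -0.37 to 0.15; limma adjusted p = 0.608) and -0.24 for estradiol (-0.50 to 0.02; limma adjusted p = 0.288), and neither was called. With the mean of both probes taken as the gene, Gls2 was called lower with testosterone (-0.24, limma adjusted p = 0.0472) and with estradiol (-0.28, limma adjusted p = 0.0407).

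**Figure D2:**
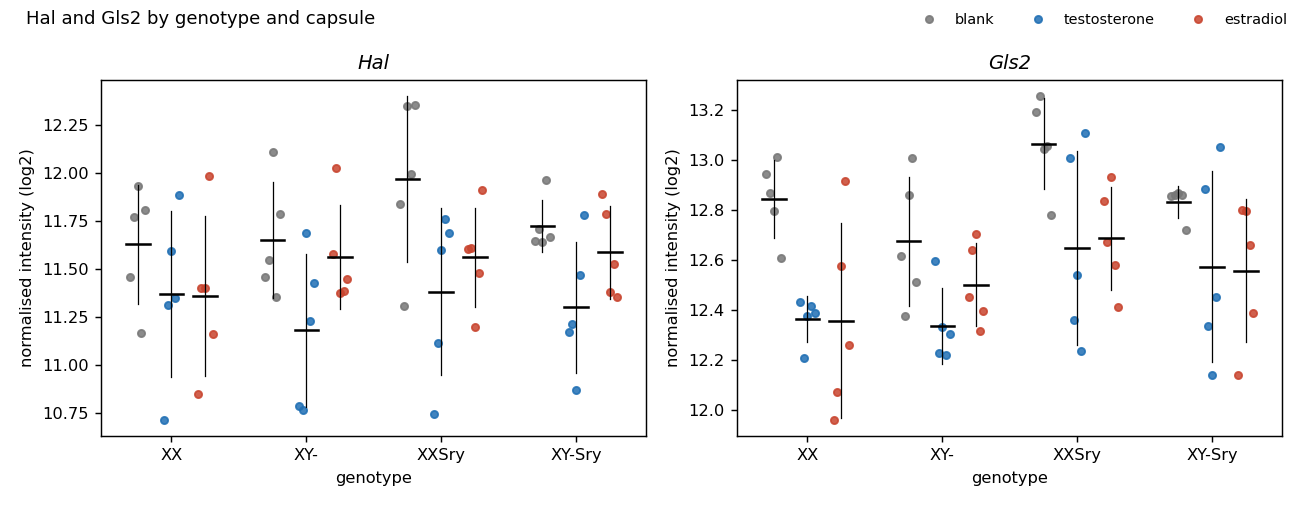
Normalised log2 intensity of Hal (left) and Gls2 (right) in each of the 60 liver arrays, by genotype and capsule (grey blank, blue testosterone, red estradiol), with group means (bars) and SD (lines, n = 5). The testosterone mean lies below the blank mean in each of the 4 genotypes for both genes, and arrays of the arms overlap.

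Glul, at the opposite end of the lobule, was lower with testosterone than with estradiol. With testosterone it read 7.48, 7.73, 7.90, 7.71 and 8.05 in XX, 7.58, 7.91, 7.86, 8.09 and 7.39 in XY-, 6.71, 8.08, 7.60, 7.68 and 6.83 in XXSry and 7.67, 7.79, 7.58, 8.09 and 6.63 in XY-Sry livers. With estradiol it read 7.93, 8.34, 8.36, 7.30 and 7.74 in XX, 8.28, 8.26, 8.18, 7.90 and 7.85 in XY-, 7.96, 8.12, 8.04, 8.15 and 7.85 in XXSry and 7.92, 7.80, 7.48, 7.59 and 7.49 in XY-Sry livers. The arms overlapped, and 16 of 20 testosterone arrays lay below the estradiol median of 7.93 and 3 below the lowest estradiol array. Those 3 arrays, XXSry T replicates 1 and 5 and XY-Sry T replicate 5, lay under 7 after normalisation, while every other array of the 60 lay above it. Glul was read by 1 probe of low raw intensity, 210 to 636 with a median of 309, where array medians were 124 to 159. The raw intensities of those 3 arrays were 213, 255 and 234. XY- B replicate 1 had the lowest raw intensity, 210, yet read 7.39 after normalisation.

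The mean of Glul was 7.62 ± 0.44 with testosterone and 7.93 ± 0.30 with estradiol capsules (SD, n = 20 each), a difference of -0.31 or 1.24-fold (95% interval -0.51 to -0.11; limma adjusted p = 0.0242), with the lower testosterone mean in 4 of 4 genotypes. Blank livers averaged 7.65 ± 0.22, close to the testosterone mean (-0.03, 95% interval -0.24 to 0.17). Estradiol against blank gave 0.28 (0.07 to 0.48), higher in 4 of 4 genotypes, with a limma adjusted p of 0.0874, so it was not called. For Glul this estradiol difference was 0.08 with median centring (limma adjusted p = 0.714), 0.16 with slide as a fixed block (limma adjusted p = 0.453) and 0.20 with slide as a random block (limma adjusted p = 0.254). It was called with array weights (0.30, limma adjusted p = 0.0434), in a fit of blank and estradiol arrays alone (0.28, limma adjusted p = 0.0342), without the pair of arrays against their labels (0.29, limma adjusted p = 0.0419) and without XX E replicate 4 (0.32, limma adjusted p = 0.0389), and was 0.31 and 0.39 within the slides that held both capsules. The testosterone minus estradiol call was lost with median centring (-0.20, limma adjusted p = 0.376) and without XY-Sry T replicate 5 (-0.25, limma adjusted p = 0.0546). It was lost too with slide as a fixed block (-0.22, limma adjusted p = 0.212) or a random block (-0.25, limma adjusted p = 0.0882). The call held without both arrays against their labels (-0.27, limma adjusted p = 0.0398). Within the slides that held both hormones the difference was -0.26 on one and 0.14, of opposite sign, on the other. Its size also moved with the background handling, to -0.34 with an offset of 1 and -0.20 with no background correction, and it was called in each.

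Markers of other cells were also called in the hormone contrasts. Of all tested probes 10.9% were called lower and 8.17% higher with testosterone, and 3.27% and 3.55% with estradiol. In testosterone minus estradiol 10.6% were lower and 7.78% higher. Of 5 tested Kupffer cell markers, 5 were lower with testosterone than with estradiol (Vsig4 at -1.10), 3 were lower with testosterone than with blank and 3 higher with estradiol. Cd5l, the sixth Kupffer marker, was not detected. The summed level of the Kupffer list ran from 1165 to 3180 with testosterone, 1595 to 6363 with blank and 2478 to 7085 with estradiol. Of 5 tested neutrophil markers, 4 were higher with estradiol than with blank (S100a8 by 2.29), and 0 were called with testosterone against blank. The neutrophil list summed to 222 to 10169 with estradiol against 174 to 1990 with blank and 169 to 435 with testosterone. Under testosterone, where Gls2 and Hal fell, 2 of 2 tested lymphocyte markers (Cd79b at -0.66), 2 of 6 stellate (Col3a1 at -0.58) and 2 of 6 endothelial cell markers (Cdh5 at -0.69) were lower, and 0 were higher. Alas2, 1 of 4 tested erythroid markers, was higher by 1.60, and Cela1 (listed as Ela1), 1 of 2 of exocrine pancreas, by 0.84. The endothelial list summed to 5454 to 8178 with blank and 4091 to 7335 with testosterone, the stellate list to 4161 to 6867 and 3493 to 5555, the lymphocyte list to 139 to 275 and 133 to 213, the erythroid list to 9235 to 26987 and 7634 to 19992, and the pancreas list to 400 to 823 and 565 to 1214. The single tested marker of cholangiocytes, of adipocytes and of muscle was not called. The part of these cells in the results on the 10 genes was not tested. In whole liver, fewer cells of a type and less RNA per cell cannot be told apart.

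**Figure D3:**
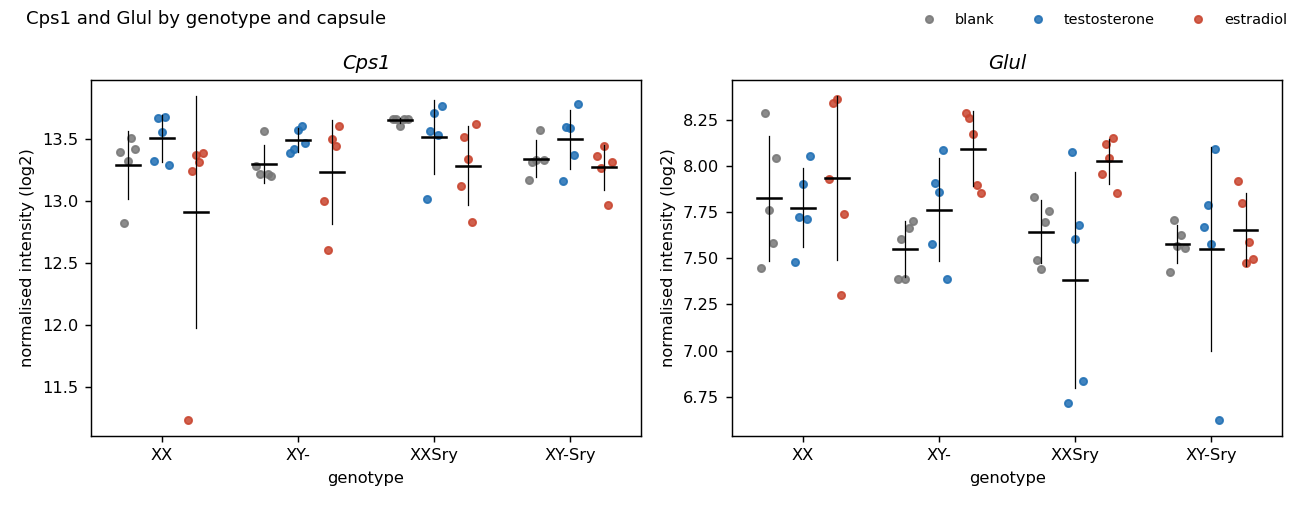
Normalised log2 intensity of Cps1 (left) and Glul (right) in each of the 60 liver arrays, by genotype and capsule (grey blank, blue testosterone, red estradiol), with group means (bars) and SD (lines, n = 5). The single estradiol array at 11.24 in XX stretches the Cps1 axis, and the 3 lowest Glul arrays are testosterone arrays of the testis line.

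Promoters are shown for Glul and Hal, the 2 called genes with an entry in the RefSeq promoter set (GRCm38.p6), which held 6 of the 10 genes. Each sequence is the 250 bases before the annotated transcription start, plus strand, at chr1:153899679-153899928 for Glul and chr10:93488518-93488767 for Hal. Capitals mark matches on either strand to the estrogen receptor half-site GGTCA and to the TCF core CTTTGA, the element of the Wnt pathway known for driving perivenous genes.
Glul: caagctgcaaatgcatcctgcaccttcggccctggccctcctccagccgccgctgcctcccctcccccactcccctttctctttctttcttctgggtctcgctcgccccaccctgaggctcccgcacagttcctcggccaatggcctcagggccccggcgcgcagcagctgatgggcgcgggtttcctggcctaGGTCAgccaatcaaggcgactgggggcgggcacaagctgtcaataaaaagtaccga
Hal: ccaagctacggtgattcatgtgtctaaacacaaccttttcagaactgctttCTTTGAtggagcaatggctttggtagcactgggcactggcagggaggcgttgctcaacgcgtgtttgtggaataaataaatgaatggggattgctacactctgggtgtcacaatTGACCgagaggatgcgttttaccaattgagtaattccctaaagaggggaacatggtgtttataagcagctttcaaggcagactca
Counted from the start, with -1 the base just before it, Glul held 1 half-site at -56 to -52 and no TCF core. Hal held 1 half-site at -85 to -81 and 1 TCF core at -199 to -194. GGTCA occurred in 35.2% and CTTTGA in 13.8% of 32851 promoter windows of this length. The androgen receptor half-site AGAACA, present in 16.1% of windows, was in neither, nor was the full palindromic element of the androgen or of the estrogen receptor. These matches are letters in a window and do not show binding.

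Hal, which opens histidine breakdown, had a lower mean with testosterone in every genotype. XX livers read 11.46, 11.77, 11.93, 11.17 and 11.81 with blank and 10.72, 11.31, 11.59, 11.35 and 11.88 with testosterone, and XY- livers read 11.46, 11.55, 12.10, 11.35 and 11.79 and 10.79, 10.77, 11.68, 11.23 and 11.43. XXSry livers read 11.83, 11.30, 12.35, 11.99 and 12.35 with blank and 10.75, 11.11, 11.60, 11.76 and 11.68 with testosterone, and XY-Sry livers read 11.65, 11.71, 11.64, 11.96 and 11.66 and 11.17, 11.21, 10.87, 11.47 and 11.78. The arms overlapped in each genotype, and 17 of 20 testosterone arrays lay below the blank median of 11.74 and 6 below the lowest blank array.

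The mean of Hal was 11.74 ± 0.32 with blank and 11.31 ± 0.38 with testosterone capsules (SD, n = 20 each), a fall of 1.35-fold (difference -0.43, 95% interval -0.65 to -0.22; limma adjusted p = 0.00249). The genotypes gave -0.26 in XX, -0.47 in XY-, -0.59 in XXSry and -0.42 in XY-Sry. The call was kept when any single array was left out and without the pair of arrays against their labels (-0.46), and the difference was -0.66, -0.56 and -0.26 within the slides that held both capsules. Estradiol livers averaged 11.52 ± 0.29, between the other arms, with the lower mean than blank in 4 of 4 genotypes (-0.22, 95% interval -0.44 to -0.01) and no call (limma adjusted p = 0.224). Testosterone minus estradiol was -0.21 (-0.43 to 0.01; limma adjusted p = 0.185), which was called with slide as a fixed block (-0.33, limma adjusted p = 0.0207) or a random block (-0.28, limma adjusted p = 0.0432).

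Tat and Oat were not called in any contrast. Tat, a classical glucocorticoid-induced enzyme, had the highest median SD within groups (0.42, range 0.08 to 0.96) and differed by 0.04 with testosterone (95% interval -0.27 to 0.35) and by 0.11 with estradiol (-0.20 to 0.43). Its highest array was XX E replicate 1, at 9.87, and without it the estradiol difference was 0.02. Oat differed by -0.06 with testosterone (-0.30 to 0.17) and by -0.13 with estradiol (-0.36 to 0.11). The estradiol effect on Oat was lower in the testis line than in the ovary line (difference -0.48, SE 0.23; limma adjusted p = 0.892), and not called. It came from a difference of -0.37 in the testis line (limma adjusted p = 0.335) and of 0.12 in the ovary line (limma adjusted p = 0.804), neither called. Group means were 13.13 and 13.16 in XXSry B and XY-Sry B against 12.75 and 12.81 in XXSry E and XY-Sry E, and 12.96 and 12.78 in XX B and XY- B against 12.95 and 13.02 in XX E and XY- E.

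Gonad type gave no call among the 10 genes. Gls2 averaged 12.73 ± 0.31 in the testis line and 12.51 ± 0.28 in the ovary line (SD, n = 30 each), with arrays from 12.14 to 13.26 and from 11.96 to 13.01. The difference was 0.21 (95% interval 0.08 to 0.35; limma adjusted p = 0.0682), just outside the threshold, and positive within 8 of 8 slides, from 0.07 to 0.44. It was called with slide as a fixed block (0.21, limma adjusted p = 0.0211) or a random block (0.21, limma adjusted p = 0.0205), and when any 1 of 7 arrays was left out: XX E replicate 4, XY-Sry T replicate 3, XXSry T replicates 2 and 4, XY- B replicate 4, XXSry B replicate 5 and XY-Sry E replicate 1. Without the pair of arrays against their labels Gls2 gave 0.19 and was not called (limma adjusted p = 0.119). The second Gls2 probe gave 0.17 (limma adjusted p = 0.605). Glul gave -0.18 (-0.35 to -0.02; limma adjusted p = 0.330), and no other member had an unadjusted limma p under 0.05. Of the tested markers 5 of 5 for Kupffer cells and 3 of 5 for neutrophils were lower in the testis line, against 3.4% of all tested probes called in either direction. Their part in these values was not tested.

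Taken within each capsule, testis line minus ovary line gave 0 of 10 members called with blank, testosterone or estradiol, against 1.75%, 0.212% and 2.44% of probes. Unadjusted limma p-values were under 0.05 for 0, 2 and 0 members. The hormone effects were also taken within each gonad line. In the ovary line testosterone called Gls2 (-0.41, limma adjusted p = 0.0195; 1 of 10 members against 7.06% of probes), and in the testis line it called Hal (-0.50, limma adjusted p = 0.0247; 1 of 10 against 9.14%). The same differences were -0.34 for Gls2 in the testis line (limma adjusted p = 0.0570) and -0.36 for Hal in the ovary line (limma adjusted p = 0.153). The Hal call in the testis line was lost without XY-Sry T replicate 3, XXSry T replicate 1, or XXSry B replicate 3 or 5. The Gls2 call in the ovary line was lost without XY- B replicate 4, and with the mean of both Gls2 probes taken as the gene. Gls2 was called in the testis line too without 1 of 7 single arrays, XY-Sry T replicate 5 among them. The test of the difference itself, testosterone by gonad, called 0 of 10 members against 0.124% of probes. Estradiol called 0 of 10 members in either line, against 2.47% and 1.78% of probes, and estradiol by gonad called 0 of 10 against 0.0795%.

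XX and XXSry livers set against XY- and XY-Sry livers gave differences between -0.01 (Ass1) and 0.12 (Tat) over the 10 genes. None had an unadjusted limma p under 0.05. Of the periportal genes 7 of 8 were positive and of the perivenous genes 2 of 2, and every 95% interval included 0. Without the pair of arrays against their labels the 10 differences lay between 0.01 (Nags, Ass1) and 0.15 (Tat), and 0 of 10 were called.

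Placed by zone, the members did not move as blocks. Under testosterone 4 of 8 periportal genes were positive and 4 negative, with 2 called lower, and both perivenous genes were negative with 0 of 2 called. Under estradiol 2 of 8 periportal genes were positive, with Gls2 called lower, while Glul at 0.28 and Oat at -0.13 lay on opposite sides of 0. In testosterone minus estradiol the called periportal gene, Cps1, was higher and the called perivenous gene, Glul, lower, but 5 of the 8 periportal genes had negative differences and Oat a positive one, 0.06. The mean of each array over the 8 periportal genes minus that over the 2 perivenous genes, each gene centred on its mean, ran from -0.35 to 0.51 with blank, -0.40 to 0.56 with testosterone and -0.57 to 0.43 with estradiol, so the arms overlapped. This score averaged 0.07 ± 0.25 with blank, 0.03 ± 0.29 with testosterone and -0.10 ± 0.27 with estradiol (SD, n = 20 each), and was not tested.

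**Figure D4:**
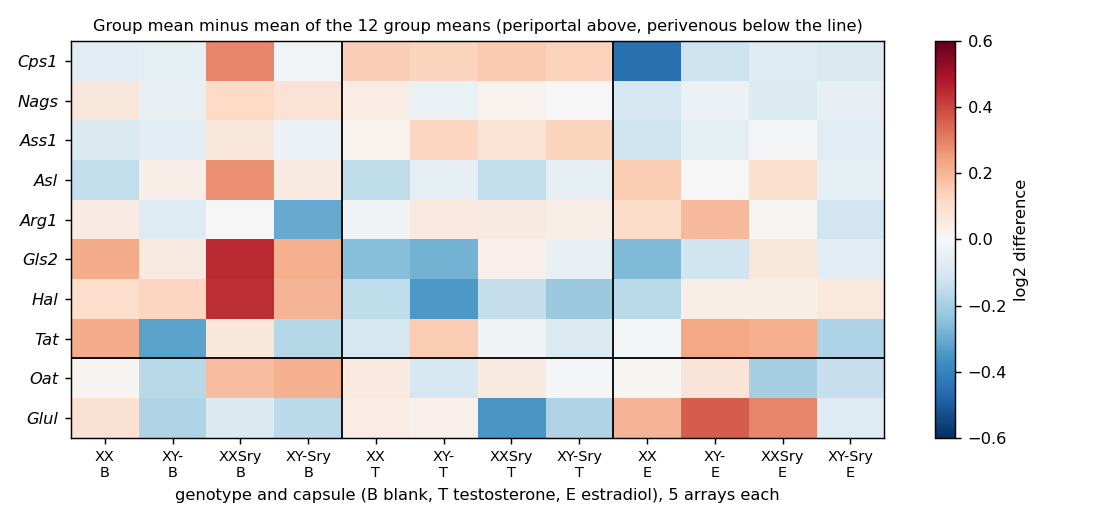
Mean of each of the 12 groups (columns, 5 arrays each) minus the mean of the 12 group means of the gene (rows), as a log2 difference from -0.6 (blue) to 0.6 (red); periportal genes lie above the horizontal line and perivenous genes below it. XXSry B is high for Cps1, Gls2 and Hal, XX E is low for Cps1, and Glul is high in the XX, XY- and XXSry estradiol groups.

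Other genes of these zones were counted in the same fit, where the shares of all tested probes called were 8.17% higher and 10.9% lower with testosterone, 3.55% and 3.27% with estradiol, and 7.78% and 10.6% for testosterone minus estradiol. Of 11 tested periportal genes outside the 10, 5 were called higher and 1 lower with testosterone, among them G6pc (0.90), the last step of glucose release, Cdh1 (0.52), an adhesion protein, and Tdo2 (0.46), which opens tryptophan breakdown; with estradiol 0 were higher and 1 lower (Slc7a2, -0.40). In testosterone minus estradiol 2 were higher (Tdo2 at 0.67 and Cyp2f2 at 0.26) and 1 lower (Igf1 at -0.38). Of 13 tested perivenous genes, 0 were higher and 1 lower with testosterone (Slc1a2, a glutamate transporter, -0.54), 1 was higher with estradiol (Slc13a3, 0.51), and 3 were lower with testosterone than with estradiol (Slc1a4 at -0.76, Slc13a3 at -0.63 and Slc1a2 at -0.35). The median of the perivenous list in that contrast was -0.07 beside 0.03 over all tested probes, and of the periportal list 0.14. In testis line minus ovary line each list had 1 gene called lower and 0 higher, against 3.4% of all tested probes called in either direction. These were the periportal G6pc (-0.71) and the perivenous Slc13a3 (-0.39).

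The rest of the pathway was read against the same shares of all tested probes. Some genes are in more than 1 list, so the counts of the lists are not independent. Tdo2 is in the periportal and amino acid breakdown lists. Slc7a2 (periportal) and Slc1a2 and Slc1a4 (perivenous) are also in the transporter list. Of 7 tested genes in the list of the urea cycle and its carriers outside the 10, 1 was called higher and 0 lower with each hormone. It was Nmral1, listed on the array as 1110025F24Rik, at 0.43 with testosterone and 0.48 with estradiol. Nmral1 is neither an enzyme nor a carrier of the cycle, though it was counted in this list. Of 56 tested genes in the amino acid breakdown list, 6 were higher and 9 lower with testosterone, and the list median was -0.03. The largest called differences were all higher, in Csad of taurine synthesis (1.14), Asns (1.09) and Aadat of lysine and kynurenine breakdown (0.67). The 9 lower genes had smaller differences. Asns, asparagine synthetase, makes asparagine and is not a breakdown enzyme, though it was counted in this list. With estradiol 1 was higher (Csad, 0.75) and 6 were lower, Agxt2 (-0.36) and Mccc1 of leucine breakdown (-0.32) among them. In testosterone minus estradiol 7 were higher and 1 lower, with Aadat at 0.72 and Tdo2 at 0.67. In testis line minus ovary line 1 was called, Asns at 0.63, against 3.4% of probes.

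Transporters that bring amino acids to these enzymes were called lower where they were called against blank. Of 12 tested, 0 were higher and 4 lower with testosterone (Slc6a12, the betaine carrier, at -0.70, Slc1a2 at -0.54 and the glutamine carrier Slc38a3 at -0.37), and 0 were higher and 3 lower with estradiol (Slc38a3 at -0.45, Slc38a4 at -0.41 and the arginine carrier Slc7a2 at -0.40). Slc38a3 was thus lower with each hormone, as the main Gls2 probe was, and these comparisons share the blank arrays. The second Gls2 probe was called with neither hormone, and a link between Slc38a3 and Gls2 was not tested. Of 16 tested regulators, 3 were higher and 5 lower with testosterone, with Cux2 (listed as Cutl2) at -3.39, Esr1, the estrogen receptor, at -1.22 and Bcl6 at 1.12, while estradiol called only Cebpb (0.37). These counts stand beside 8.17% of all tested probes higher and 10.9% lower with testosterone, and 3.55% and 3.27% with estradiol. Under testosterone the amino acid breakdown and transporter lists had medians of -0.03 and -0.30 beside 0.00 over all tested probes.

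Within groups, some of the genes rose and fell together from array to array. Deviations from the group mean were correlated for all 45 pairs over 60 arrays, with p from 100000 permutations within groups, adjusted by Benjamini-Hochberg over the 45 pairs. The permutations did not hold slide fixed, so these p-values do not account for arrays that share a slide, and r with slide means removed is given beside each, without a test. Cps1 and Ass1 had r = 0.65 (permutation p = 0.00213, adjusted 0.0168) and rho = 0.46 (permutation p = 0.00160, adjusted 0.0120), r was 0.57 without the 2 arrays farthest from the median of Cps1, and 0.54 with slide means removed. Oat and Hal had r = 0.58 and rho = 0.63 (permutation p = 1e-05 for each, the smallest the permutations can give, adjusted 0.00045), r was 0.57 without the 2 arrays farthest from the median of Oat and 0.22 with slide means removed. Gls2 and Glul, the opposing glutamine enzymes, had r = -0.51 (permutation p = 0.00433, adjusted 0.0278) and rho = -0.39 (permutation p = 0.0120, adjusted 0.0598). For this pair r was -0.38 without the 2 arrays farthest from the median of Gls2 and -0.53 with slide means removed. The lowest Glul arrays, XXSry T replicates 1 and 5 and XY-Sry T replicate 5, read Gls2 at 13.01, 13.11 and 13.05. These were the highest Gls2 values among the testosterone arrays, and r without these arrays was not computed. Of the 45 pairs 7 had an adjusted p for r under 0.05, 6 of them positive, and the median r was 0.03. With slide means removed these 7 kept their sign, at sizes from 0.22 to 0.56.

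Over the 60 arrays the probes most like each gene were named by Pearson r, as a description without a test, since arrays share slides and treatments. Cps1 was most like Car3 (r = 0.81), the abundant carbonic anhydrase of liver and muscle. XX E replicate 1 read Cps1 far below the other arrays, at 11.24, and r without it was not computed. Oat was most like Acadm of fatty acid oxidation (0.67) and Fbp1 of gluconeogenesis (0.67). Hal was most like Echdc3 (0.63) and Agt (0.62), Gls2 like BC021608 (0.73) and Nqo2 (0.73), and Asl like Dap3 (0.73) and Epas1 (0.70). Nags, Tat and Glul had weaker nearest neighbours, Tmub1 at 0.55, 1700018O18Rik at 0.58 and 4432416J03Rik at 0.59.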

How the data were processed

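Total RNA of 60 livers was read on 1-colour Illumina BeadChips. Per the file headers, the deposited table holds, for each probe and array, a bead-averaged linear intensity with its detection p-value; its 60 standard error columns were not used. Per the submitters' processing notes lumi was used, but the deposited intensity values look neither background-subtracted nor normalised (lowest 89.1, array medians unequal). The genome build of the probes is not given in the sources used here.

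Normexp correction from the detection p-values, an offset of 16, quantile normalisation and a log2 transform were run with limma 3.58.1 (R 4.3.3). Because 16 is added, differences of dim probes are understated. Probes with a detection p under 0.01 in at least 5 arrays were tested (11317 of 25697). A mean was fitted for each of the 12 groups with lmFit and eBayes, contrasts weighted groups equally, and p was adjusted by Benjamini-Hochberg within each of 14 contrasts. The number of arrays limits precision. The test was checked on simulated data. Other normalisations, backgrounds, offsets (1 and 50), filters, slide blocks, array weights, and leaving out arrays were tried. The 10 genes and the gene lists were chosen with earlier results of these data known. Named beside the 10 are, in each list, the called genes with the largest differences (up to 3 per contrast printed) and, per gene, the most similar probes. Symbols were updated through RefSeq (GRCm38.p6). Probe sequences were not used here, so cross-hybridisation was not tested. Adipose arrays were not analysed here.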

Additional observations from a re-analysis of the deposited data

Results flagged for a closer look

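In 10 of 120 combinations of gene and group of 5 arrays, 1 array lay far from the other 4 (gap over range above Dixon's critical value of 0.71); chance gives about 1 in 20. Cps1 accounted for 4 of them. It read 11.24 in XX E replicate 1, where the others lay between 13.24 and 13.39, and 12.82 in XX B replicate 2, where the others lay between 13.32 and 13.51. It read 13.56 in XY- B replicate 3, above the others at 13.20 to 13.28, and 13.61 in XXSry B replicate 3, where the other 4 shared the value 13.66 and the gap is small.

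Arg1 read 12.55 in XX T replicate 1 and 12.26 in XY-Sry E replicate 1, each below the rest of its group. Gls2 read 12.21 in XX T replicate 2 and 12.72 in XY-Sry B replicate 5, again the lowest of their groups. Oat read 12.31 in XY- E replicate 3, and Hal read 11.96 in XY-Sry B replicate 4, the highest of its group. No cause was tested for any of these arrays.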

How the results depend on the processing

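No paired analysis was possible because the labels carry no replicate numbers; slide was fitted as a block instead. The testosterone count stayed at 2 members in every alternative run, with Gls2 and Hal called in each: Gls2 lay between -0.47 and -0.24 under the other settings and between -0.40 and -0.35 with 1 array left out, and Hal between -0.51 and -0.42 and between -0.48 and -0.39. Within slides, without a test, Gls2 lay between -0.40 and -0.20 and Hal between -0.66 and -0.26. The estradiol count was 1 and became 0 with slide as a fixed block and 2 with array weights, without both arrays against their labels or with blank and estradiol arrays alone, where Glul joined. The testosterone minus estradiol count fell from 2 to 1 with median centring (Glul -0.20) and with no filter (Cps1 0.33, limma adjusted p = 0.0536). With either slide block it stayed at 2, with Cps1 and Hal called and Glul not. The gonad count rose from 0 to 1, Gls2, with no background correction, array weights or slide as a fixed or random block. Testosterone in the ovary line gave 2 members with either slide block and 0 with the mean of all probes. In the testis line it gave 0 with median centring and 2 with no background correction, offset 50, detection in at least 30 arrays, either slide block, array weights or without both arrays. Estradiol in the ovary line gave 1 with median centring. Leaving out each array in turn gave 1 to 2 members for estradiol, 1 to 2 for testosterone minus estradiol, 0 to 1 for gonad, 0 to 1 for testosterone in the ovary line, 0 to 2 in the testis line and 0 to 1 for estradiol in the ovary line (1 without XX E replicate 4). Uncalled members turned sign near 0. For testosterone, Glul gave 0.029 with array weights and 0.027 without both arrays (-0.075 to 0.027 with 1 array out), and Tat -0.051 with median centring, -0.023 with array weights and -0.0038 without both (-0.0074 to 0.11). For estradiol, Asl gave 0.018 and 0.011 with slide as a fixed and random block (-0.054 to 0.045), Arg1 -0.053 and Tat -0.096 with median centring, and Tat -0.0042 with array weights; Ass1 ran from -0.063 to 0.019. For testosterone minus estradiol, median centring gave Arg1 0.11 (-0.058 to 0.013), Gls2 0.062 and Tat 0.045 (-0.14 to 0.022); Gls2 gave 0.042 with the mean of its probes, Oat -0.0095 with slide as a fixed block, and Glul 0.14 within slide 7. For gonad, Oat ran from -0.0010 to 0.061 and Tat from -0.10 to 0.0067. Median centring moved the median of all tested probes under estradiol to -0.18 and the share of its calls that were higher from 52.1% to 8.55%; under testosterone the share went from 42.8% to 16.5%, and in testosterone minus estradiol from 42.3% to 53.3%. The cause was not tested.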
